A study of Mus musculus with 16 samples.

Results

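Break ends were counted over 9 mouse genes that encode chaperones and folding enzymes of the endoplasmic reticulum, out of 32052 protein-coding and long noncoding genes of GENCODE M21 on the main chromosomes. The 9 genes are Calr, Canx, Hspa5, Hsp90b1, Pdia3, Pdia4, Pdia6, P4hb and Fkbp2. They were chosen by function after the gene body ends of Calr and Fkbp2 had been seen to be lower in 1 of the 2 cell lines compared here, so the comparison between lines is given below as a description, with no test. All ends between a gene's start and end were taken, with the gene's exons and introns counted apart.

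The ends come from BLISS, a method that ligates an adapter to free DNA ends in fixed cells and counts each ligated molecule once. The cells are AB22, a mouse malignant mesothelioma line. shHMGB1 cells carried an inducible hairpin against HMGB1, a DNA-bending chromatin protein, and shCTRL cells carried a control hairpin in the same pTRIPZ vector. Both lines were infected with viral particles, selected with puromycin and grown with doxycycline before the experiment, so the controls shared the infection, the selection and the inducer. Cells of both lines were held in G1 and irradiated with gamma rays from a caesium source, at doses of 0, 3, 5 and 10 Gy. There were 8 shHMGB1 and 8 shCTRL libraries, 2 at each dose, called biological replicates without further detail, so p-values measure only the spread between these libraries. The study's title poses the question of nucleosomes as a shield of DNA against radiation breaks.

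A library held 131430 to 1010888 ends on the main chromosomes, with a median of 805996.5, and the smallest was shCTRL 3 Gy replicate 2. Levels are given as CPM, the count of ends scaled to a common total of ends on the main chromosomes. The targeted gene, Hmgb1, had a log2 change of 0.16 ± 0.20 (SE) in shHMGB1 against shCTRL libraries, with an edgeR adjusted p of 0.845. Break ends do not measure transcripts, so neither the knockdown nor the cell type can be checked from them. Exon densities of the marker lists were 0.910 CPM per kb for mesothelial genes (0.0430 to 5.74 in single genes), 0.307 for blood and 0.290 for epithelial genes. Each list was pooled, and all were below the 1.04 of pooled coding genes. That pool includes a gene at 13480.9, and the median of single coding genes was 0.362.

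Proteins that enter the endoplasmic reticulum fold there with the help of chaperones before they move on to the cell surface or out of the cell. Hspa5 (BiP, an Hsp70 family member) and Hsp90b1 (Grp94, an Hsp90 family member) hold unfolded chains, while Calr (calreticulin) and Canx (calnexin) bind chains through their sugars. Pdia3 works with Calr and Canx to form disulphide bonds in glycoproteins, and Pdia4, Pdia6 and P4hb are further disulphide isomerases. Fkbp2 is a prolyl isomerase of the same compartment. When unfolded protein builds up, the unfolded protein response raises transcription of many of these genes, in part through the ER stress response element of their promoters.

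In mm10 coordinates, Calr (ENSMUSG00000003814.8) lies on the minus strand at chr8:84841850-84846934 and Canx (ENSMUSG00000020368.15) on the minus strand at chr11:50293961-50325673. Hspa5 (ENSMUSG00000026864.13) lies on the plus strand at chr2:34771970-34777547 and Hsp90b1 (ENSMUSG00000020048.13) on the minus strand at chr10:86690209-86705509. Pdia3 (ENSMUSG00000027248.13) lies on the plus strand at chr2:121413775-121438687 and Pdia4 (ENSMUSG00000025823.9) on the minus strand at chr6:47796141-47813430. Pdia6 (ENSMUSG00000020571.12) lies on the plus strand at chr12:17266545-17284770 and P4hb (ENSMUSG00000025130.11) on the minus strand at chr11:120560298-120573253. Fkbp2 (ENSMUSG00000056629.16), the shortest of the 9 at 2761 bases, lies on the minus strand at chr19:6977741-6980501. The bodies of Pdia3, Hsp90b1 and Pdia6 overlap another annotated gene each, Catsper2, Gm15344 and Atp6v1c2, and ends in the overlap were counted for both genes. Reads from a processed copy of a gene elsewhere in the genome cannot be told from reads of that gene's exons in these files, and the counts of exon-rich genes carry that uncertainty. A processed copy of Calr, Calr-ps, is annotated on chromosome 2.

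The 9 genes together held 4461 ends. Calr held 1238 of them, Canx 853, Hspa5 642, Hsp90b1 562, Pdia3 312, P4hb 303, Pdia6 236, Fkbp2 164 and Pdia4 151.

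The ends were concentrated in exons, and within exons at a few places. The sequence at the densest place of 8 of the 9 genes, all but Pdia4, is shown first, since the results on where ends fell turn on it. In Calr, a stretch of 100 coding bases in the last exon, at chr8:84842715-84842814, held 720 of the gene's 1238 ends, or 58.2%. It is printed as coded, 5′ to 3′, with capitals at each base that held at least 20 ends over the 16 libraries.

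Calr: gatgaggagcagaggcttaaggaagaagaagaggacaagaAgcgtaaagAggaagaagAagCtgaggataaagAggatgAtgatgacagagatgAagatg

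This stretch, picked for its ends, is 83.0% purine, against 58.4% over the whole Calr coding sequence. A single base in it, chr8:84842774, held 301 ends, which is 24.3% of the gene's ends (95% exact binomial interval 21.9% to 26.8%, counting error only). All 16 libraries had ends at that base. There the shHMGB1 libraries had 17.6 ± 3.60 and the shCTRL libraries 41.6 ± 14.4 CPM (SD, n = 8 each), with a highest shHMGB1 library of 23.0 and a lowest shCTRL library of 18.6.

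In Hspa5, the first 60 coding bases, at chr2:34772322-34772381, held 138 of 642 ends, or 21.5%. Capitals mark bases with at least 5 ends.

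Hspa5: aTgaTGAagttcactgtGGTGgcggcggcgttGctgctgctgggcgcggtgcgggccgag

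The base with the most ends, chr2:34772326, held 23.

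In Canx, Hsp90b1, Pdia3, Pdia6 and P4hb the densest position lay at the edge of an exon. The 5 sequences below are spliced coding sequence across that exon junction, 5′ to 3′, with the exon at whose edge the ends lay in capitals and the neighbouring exon in lower case.

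Canx: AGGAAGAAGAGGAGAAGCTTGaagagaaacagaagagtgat

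Hsp90b1: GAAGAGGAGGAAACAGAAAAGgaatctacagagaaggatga

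P4hb: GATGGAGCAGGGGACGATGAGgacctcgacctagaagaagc

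Pdia6: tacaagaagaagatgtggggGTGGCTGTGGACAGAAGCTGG

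Pdia3: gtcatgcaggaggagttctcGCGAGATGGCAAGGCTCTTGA

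The Canx position, chr11:50297274, is the edge base of exon 13 of 15 and held 150 of 853 ends (17.6%) in all 16 libraries. The Hsp90b1 position, chr10:86691630, lies 1 base inside exon 17 of 18 and held 44 of 562 ends (7.83%). The P4hb position, chr11:120562160, is the intron base beside exon 10 of 11 and held 29 of 303 ends (9.57%). The Pdia6 position held 9 ends and the Pdia3 position 11. The printed sequences are 85.4% purine in Canx and in Hsp90b1, 73.2% in Pdia6, 70.7% in P4hb and 58.5% in Pdia3. The whole coding sequences of these genes are between 55.0% (Pdia3) and 58.7% (Hsp90b1) purine. On the minus strand genes Canx, Hsp90b1 and P4hb the crowded edge is the end of the exon in the direction of transcription, and on the plus strand genes Pdia3 and Pdia6 it is the beginning, so in genome coordinates it was the low edge in all 5.

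In Fkbp2 a single base, chr19:6979508, held 67 of 164 ends (40.9%). It lies inside the gene body in an exon of another transcript, outside the exons of the principal one. The 29 bases around it, from the minus strand (RefSeq, GRCm38.p6, chr19:6979494-6979522), are printed with that base in capitals.

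Fkbp2: tcgtccagtcgggaCaaatccggtgcaat

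Of the 67 ends, 15 came from shHMGB1 and 52 from shCTRL libraries, and 10 of the 16 libraries had any. One library, shCTRL 5 Gy replicate 2, held 18 of them. In Pdia4 the densest position, an intron base, held 11 ends, and ends were otherwise scattered.

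**Figure D1:**
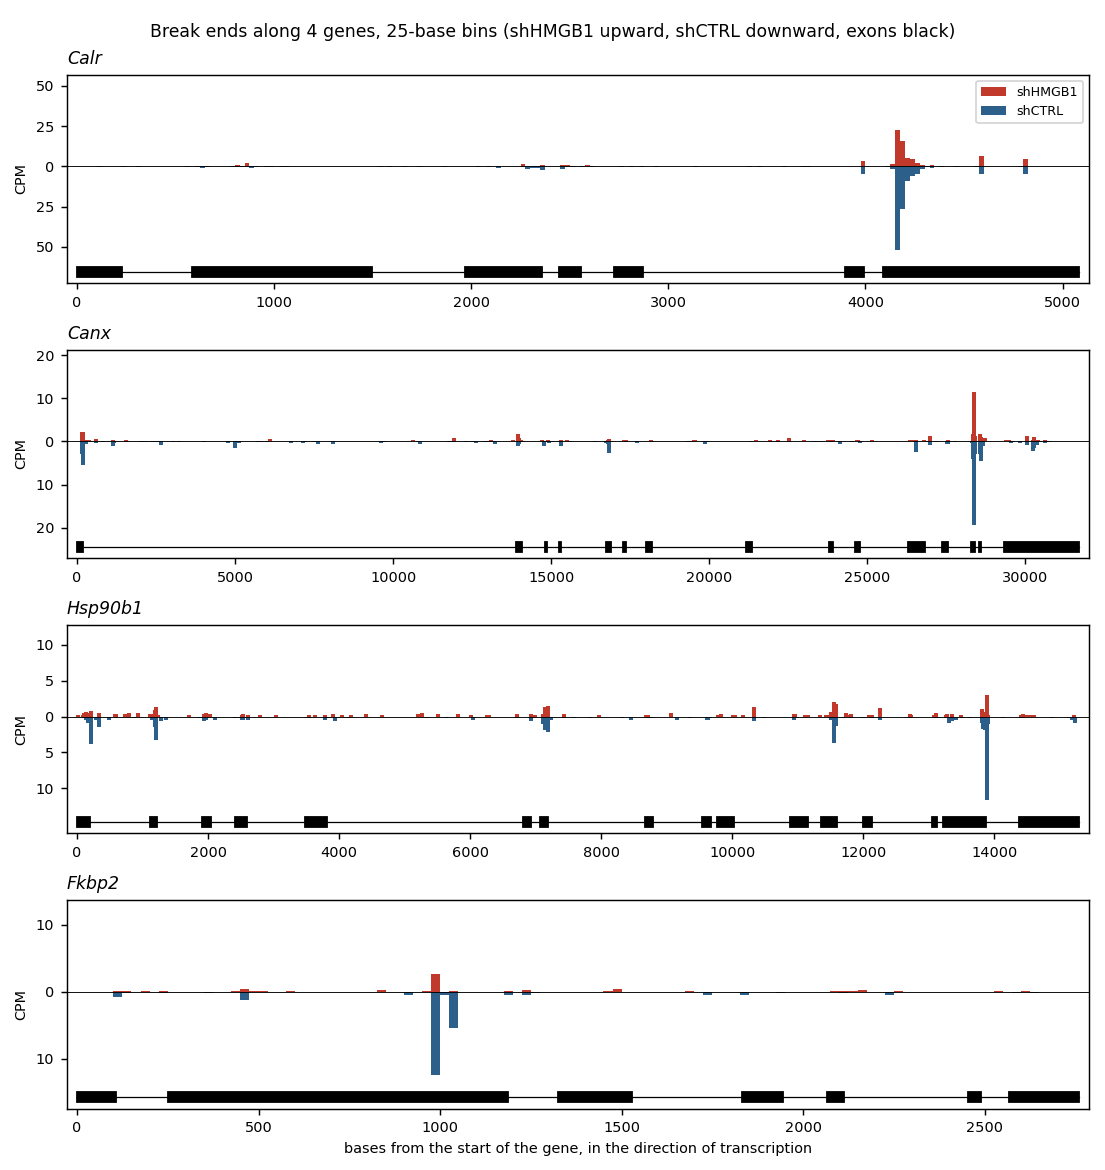
Break ends along Calr, Canx, Hsp90b1 and Fkbp2, in CPM per 25-base bin (libraries of a line pooled), against bases from the gene's start, with shHMGB1 upward, shCTRL downward and exons as black boxes (bars are drawn wider than their bin in the longer genes). Most Calr ends lie in the last exon, the tallest Canx and Hsp90b1 bars stand at exon edges, and the tallest Fkbp2 bar is the base that held 67 ends.

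Exons of all transcripts were merged, which leaves out junctions inside a merged exon. The crowding at exon edges was measured over the remaining 89 internal exon junctions of the 9 genes. Of the 4461 ends, 561 (12.6%) lay within 3 bases of the low-coordinate edge of such an exon, against 13 (0.291%) near the high-coordinate edge. The last intron base before the low edge held 214 ends, the first exon base 235 and the second exon base 55. In all other coding genes, 1.60% of ends lay at low edges and 0.207% at high edges, so the excess of low over high edges was present there too at a smaller share. Among the 9 genes the low-edge share was highest in Canx at 26.1% and in Hsp90b1 at 24.4%, followed by Pdia6 at 15.3% and P4hb at 14.9%. It was lowest in Hspa5 at 2.02%, where 6 junctions were counted although the principal transcript has 9 exons.

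The low-edge share did not separate the groups. It averaged 11.5% ± 2.88 in shHMGB1 and 12.8% ± 3.92 in shCTRL libraries (SD, n = 8 each). It averaged 11.9% ± 3.51 in irradiated libraries (n = 12) and 12.9% ± 3.41 in libraries at 0 Gy (n = 4). The deposited files keep no strand, so the side of the break from which these ends were read cannot be told. Reads of spliced sequence, from cDNA or from a processed copy, cannot be told from genomic break ends in these files either, and their part in the ends at exon edges was not tested.

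**Figure D2:**
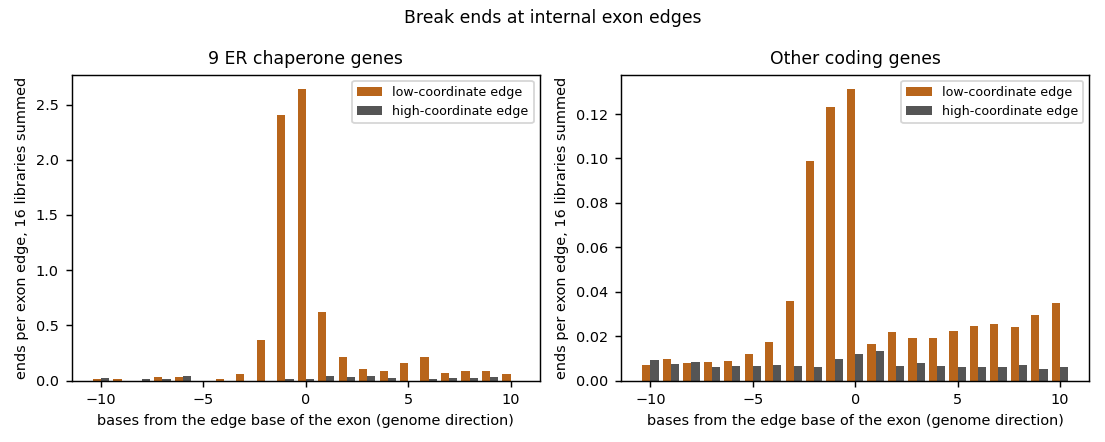
Break ends per internal exon edge, summed over 16 libraries, at each base from 10 before to 10 after the edge base in genome direction, for the 9 chaperone genes (left) and all other coding genes (right, with its own axis range). The low-coordinate edges show a peak at the last intron base and the first exon base, with 214 and 235 ends in the 9 genes, and the high-coordinate edges show none in the 9 genes and a smaller one in other coding genes, with 2422 ends at the edge base against 26648 at the low edge.

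Per kb, the 9 genes were dense in ends, above all in exons. Exon density ran between 1.88 CPM per kb in Pdia6 and 38.3 in Calr (means of 16 libraries), against a median of 0.362 over 19929 coding genes with introns. Calr ranked at the 99.9th percentile for exon density and Pdia6, the lowest member, at the 93.4th. Next to Calr stood Hspa5 at 12.47 ± 5.17, Canx at 9.32 ± 4.01, Fkbp2 at 8.59 ± 10.1 and Hsp90b1 at 8.25 ± 3.49 (SD, n = 16). These SDs are the spread between libraries. The genes were not compared within libraries, so their order was not tested. P4hb followed at 4.07 ± 2.22, Pdia3 at 3.20 ± 1.74 and Pdia4 at 2.47 ± 1.90, and these overlap Pdia6.

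Intron density ran between 0.515 CPM per kb in Pdia4 and 3.79 in Calr, against a median of 0.278. With ends beside exon edges left out, the Calr introns had 1.54 ± 1.86 and the Pdia4 introns 0.466 ± 0.296 CPM per kb (SD, n = 16). Exons were denser than introns in each of the 9 genes, by 1.92 times in Pdia6 to 10.1 times in Calr. Over the 9 genes together the ratio was 8.59, against 2.64 over coding genes in general and 2.57 over 73 other genes of folding, quality control and the unfolded protein response. This pooled ratio was above that of every member but Calr, with Canx at 8.12, Hsp90b1 at 5.33, Pdia4 at 4.80 and Fkbp2 at 4.13. Hspa5 stood at 4.11, Pdia3 at 3.89 and P4hb at 2.69.

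The share of a gene's ends that fell in its exons was 91.8% in Calr (95% exact binomial interval 90.2% to 93.3%), where exons make up 56.6% of the gene. In Hspa5 it was 92.5%, in Fkbp2 84.1%, in Hsp90b1 65.3% and in Canx 58.6%. In Pdia4, P4hb, Pdia3 and Pdia6 it was 40.4%, 39.9%, 34.6% and 31.4%, so most ends of these 4 disulphide isomerase genes lay in introns. In Calr the last exon alone held 78.8% of the ends. In Hspa5, with the exons of all transcripts merged, 33.6% of the ends lay in the first merged exon, 30.2% in inner ones and 28.7% in the last. These parts make up 8.68%, 31.3% and 35.8% of the gene's length, so the first merged exon was the densest of them. The densest Hspa5 base lies in it and belongs to exon 2 of 9 of the principal transcript.

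**Figure D3:**
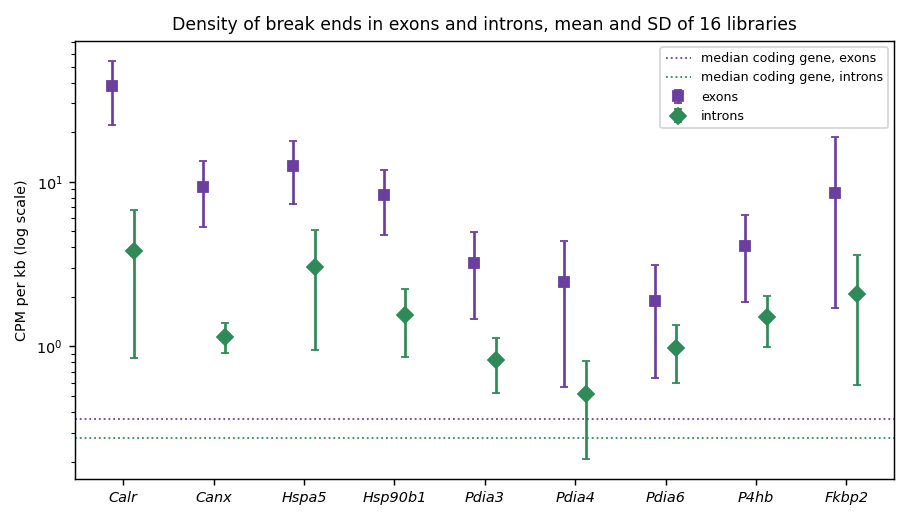
Density of break ends in exons (squares) and introns (diamonds) of the 9 genes, in CPM per kb on a log axis, as mean and SD of 16 libraries (the lower bar of Fkbp2 exons, whose SD exceeds the mean, is cut short), with dotted lines at the median coding gene. Calr stands highest at 38.3 in exons, and all 9 genes lie above both medians of 0.362 and 0.278.

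Irradiation was the comparison that did not enter the choice of the genes. It asks whether ends in irradiated libraries, at 3, 5 and 10 Gy together, differed from those at 0 Gy, averaged over both lines. All 9 genes passed the filter on low counts in their whole bodies. No member was called at an adjusted p under 0.05 (edgeR quasi-likelihood test with Benjamini-Hochberg adjustment), where 2 of 12584 genes were called, or 0.0159%. DESeq2 called none of all genes, and 875 genes had an unadjusted edgeR p under 0.05, Hspa5 among them. With the replicate number of each line as a block, 19 genes were called, and again no member.

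Hspa5, the chaperone that also restrains the sensors of the unfolded protein response, had the largest fitted difference among the members. In shHMGB1 libraries its level was 34.7 and 35.2 CPM at 0 Gy, 80.3 and 15.98 at 3 Gy, 55.3 and 26.7 at 5 Gy, and 67.3 and 42.4 at 10 Gy. In shCTRL libraries it was 63.9 and 38.3 at 0 Gy, 72.2 and 68.5 at 3 Gy, 91.6 and 64.8 at 5 Gy, and 76.9 and 75.7 at 10 Gy. Of the 12 irradiated libraries, 8 lay above the highest library at 0 Gy, and 2 shHMGB1 libraries lay below the lowest.

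The fitted log2 difference of Hspa5, irradiated over 0 Gy, was 0.56 ± 0.24 (SE), with an unadjusted p of 0.0215 and an adjusted p of 0.65 by edgeR. It was 0.57 ± 0.33 in shHMGB1 and 0.54 ± 0.34 in shCTRL cells, and the test of the difference between lines gave 0.03 ± 0.46 with an edgeR adjusted p of 0.999. The 2 shHMGB1 replicates differed. Replicate 1 was at 34.7 CPM at 0 Gy and at 55.3 to 80.3 when irradiated. Replicate 2 was at 35.2 at 0 Gy, lower at 3 Gy (15.98) and 5 Gy (26.7), and higher at 10 Gy (42.4). In shCTRL cells both replicates were higher at each dose than at 0 Gy. The value over both lines moved to 0.28 without shHMGB1 3 Gy replicate 1, to 0.35 without shCTRL 0 Gy replicate 2 and to 0.83 without shCTRL 0 Gy replicate 1.

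The other 8 members had log2 differences, irradiated over 0 Gy, between −0.29 ± 0.31 in Pdia6 and 0.25 ± 0.42 in Fkbp2. Calr was at 0.04 ± 0.18, Hsp90b1 at 0.02 ± 0.22, P4hb at 0.00 ± 0.28 and Canx at −0.10 ± 0.19. The lectin Calr averaged 120 ± 49.7 CPM in irradiated libraries (SD, n = 12) and 115 ± 46.0 at 0 Gy (n = 4). The sum of the 9 genes averaged 408 ± 121 CPM in irradiated libraries and 405 ± 84.3 at 0 Gy. The median of the 9 log2 differences was 0.00, and that of all 12584 tested genes was 0.01.

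In exons, 8 members passed the filter, all but Pdia4, and none was called for irradiation, as for all 2629 genes tested (0% called by edgeR, 182 at an unadjusted p under 0.05, 0 by DESeq2). Pdia3 exons stood at 0.59 ± 0.52 and Hspa5 exons at 0.58 ± 0.27 on the log2 scale. These are relative to the tested exons as a whole, which the scale factors put 0.15 lower on the log2 scale in irradiated libraries than at 0 Gy. In introns, 6 members passed, Calr, Canx, Hsp90b1, Pdia3, Pdia6 and P4hb, and none was called, where 4 of 10632 genes were (0.0376%). Pdia3 introns had the lowest value at −0.52 ± 0.33, so the exon and intron values of this gene pointed in opposite directions and the adjusted p of each was above 0.05. With the replicate number of each line as a block, 4 genes were called in exons and 12 in introns, none of them a member.

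The response to irradiation was also compared between the lines, as the difference in shHMGB1 minus that in shCTRL. No member and none of the 12584 genes was called by edgeR (0%), none by DESeq2, and 652 genes had an unadjusted edgeR p under 0.05, none of them a member. Calr had the value farthest from 0 among the members, −0.56 ± 0.36 on the log2 scale, made of −0.24 ± 0.25 in shHMGB1 and 0.32 ± 0.26 in shCTRL cells. Its adjusted p was 0.978, the lowest among the 9 genes. Intervals of this width do not show that the lines respond alike.

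**Figure D4:**
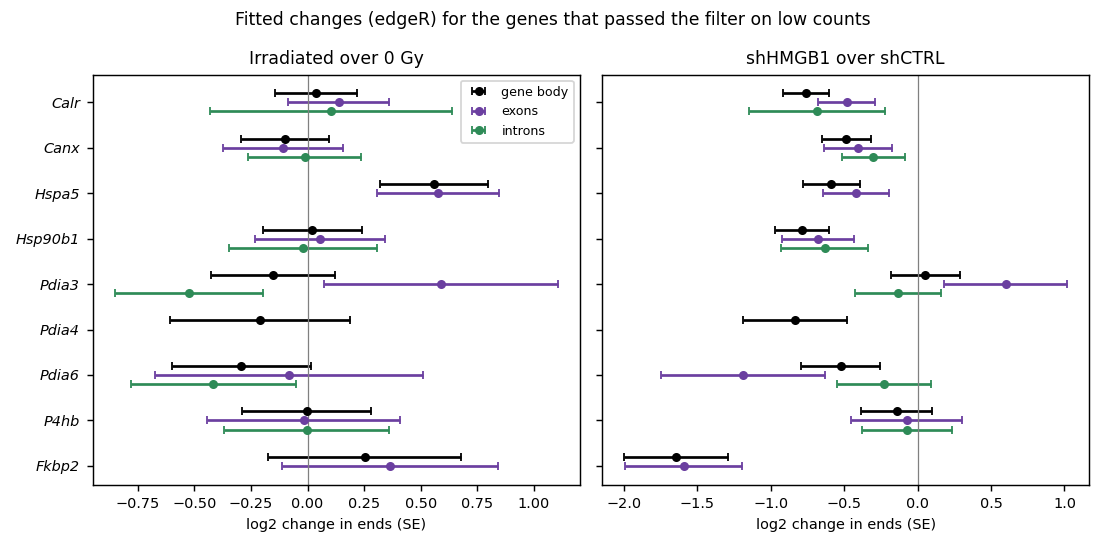
Fitted log2 changes (edgeR, with SE bars) of each gene for irradiated over 0 Gy (left) and shHMGB1 over shCTRL (right), for gene bodies, exons and introns where the gene passed the filter on low counts. On the left most values lie around 0, with Hspa5 at 0.56, and on the right 8 of 9 gene body values are below 0, with Fkbp2 farthest at −1.65.

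Between the lines, 8 of the 9 genes had a lower fitted level in shHMGB1 than in shCTRL cells, as 5726 of all 12584 tested genes had, and what follows describes values that were known when the genes were chosen. Summed over the 9 genes, the shHMGB1 libraries had 317 ± 66.8 and the shCTRL libraries 497 ± 56.4 CPM (SD, n = 8 each). The highest shHMGB1 library stood at 384 and the lowest shCTRL library at 391.7. How often other genes, or sums of other genes, part the lines in this way was not counted, here or for the single genes below. The median of the 9 log2 changes was −0.59, against 0.04 over all tested genes.

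Calr, the lectin chaperone with the most ends, was measured in shHMGB1 libraries at 107 and 94.2 CPM at 0 Gy, 76.9 and 43.9 at 3 Gy, 71.9 and 92.9 at 5 Gy, and 108 and 84.7 at 10 Gy. In shCTRL libraries it was at 76.3 and 181 at 0 Gy, 132 and 213 at 3 Gy, 185 and 154 at 5 Gy, and 128 and 148 at 10 Gy. At 3, 5 and 10 Gy both shHMGB1 libraries lay below both shCTRL libraries, and at 0 Gy the lines overlapped, with shCTRL replicate 1 at 76.3 the lowest of that dose. The log2 change, shHMGB1 over shCTRL, was −0.76 ± 0.16 (SE).

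Canx, the membrane-bound relative of Calr, ranged over 43.9 to 81.4 CPM in shHMGB1 libraries, with a median of 64.2, and over 30.4 to 113 in shCTRL libraries, with a median of 92.7. The lowest shCTRL value came from the smallest library, where Canx had 4 ends. Its log2 change was −0.49 ± 0.17. Without shCTRL 3 Gy replicate 1 it was −0.05, and the median of all tested genes was then 0.20, against 0.04 with that library.

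Hsp90b1, the Hsp90 family chaperone, had 41.9 and 38.6 CPM at 0 Gy in shHMGB1 libraries, 41.8 and 17.3 at 3 Gy, 36.5 and 36.9 at 5 Gy, and 48.5 and 36.3 at 10 Gy. In shCTRL libraries it had 72.2 and 53.6 at 0 Gy, 66.9 and 45.7 at 3 Gy, 66.6 and 80.0 at 5 Gy, and 78.0 and 50.8 at 10 Gy. At each of the 4 doses both shHMGB1 libraries lay below both shCTRL libraries, and the share of all genes with this pattern was not counted. Across doses, 1 shHMGB1 library at 10 Gy exceeded the lowest shCTRL library at 3 Gy. The log2 change was −0.79 ± 0.19. Hspa5, whose 16 values are given above, had a log2 change of −0.59 ± 0.20 between the lines, and −0.98 without shHMGB1 3 Gy replicate 1.

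The disulphide isomerases were less alike. Pdia3 had 27.7 ± 5.94 CPM in shHMGB1 and 28.3 ± 7.32 in shCTRL libraries (SD, n = 8 each), and a log2 change of 0.05 ± 0.24. P4hb, at 24.9 ± 9.14 in shHMGB1 and 29.0 ± 5.33 in shCTRL libraries, had −0.14 ± 0.24. Both genes overlapped widely between the lines.

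Pdia6 had 17.3 ± 6.60 in shHMGB1 and 25.1 ± 8.27 CPM in shCTRL libraries, and a log2 change of −0.52 ± 0.27. Pdia4, the least covered gene, had 10.3 ± 6.03 in shHMGB1 and 16.9 ± 6.34 in shCTRL libraries and a log2 change of −0.84 ± 0.35. The Pdia4 value was −0.26 without shCTRL 5 Gy replicate 2, which left shCTRL 5 Gy replicate 1, with a single end in this gene, alone in its group.

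Fkbp2, the prolyl isomerase, had 7.23 and 4.54 CPM in shHMGB1 libraries at 0 Gy, 10.2 and 4.00 at 3 Gy, 2.21 and 7.63 at 5 Gy, and 6.92 and 15.7 at 10 Gy. In shCTRL libraries it had 10.3 and 35.7 at 0 Gy, 14.02 and 7.61 at 3 Gy, 29.1 and 72.4 at 5 Gy, and 24.5 and 10.6 at 10 Gy. The shHMGB1 values rest on 2 to 13 ends a library, and 4 of 8 shCTRL libraries lay above the highest shHMGB1 library. The log2 change was −1.65 ± 0.35, and −1.30 with the gene's densest base left out. A window of 300 bases that contains this base, chr19:6979343-6979642, held 20 of the gene's 49 shHMGB1 ends. It held 87 of the 115 shCTRL ends, and the change without this window was not fitted.

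**Figure D5:**
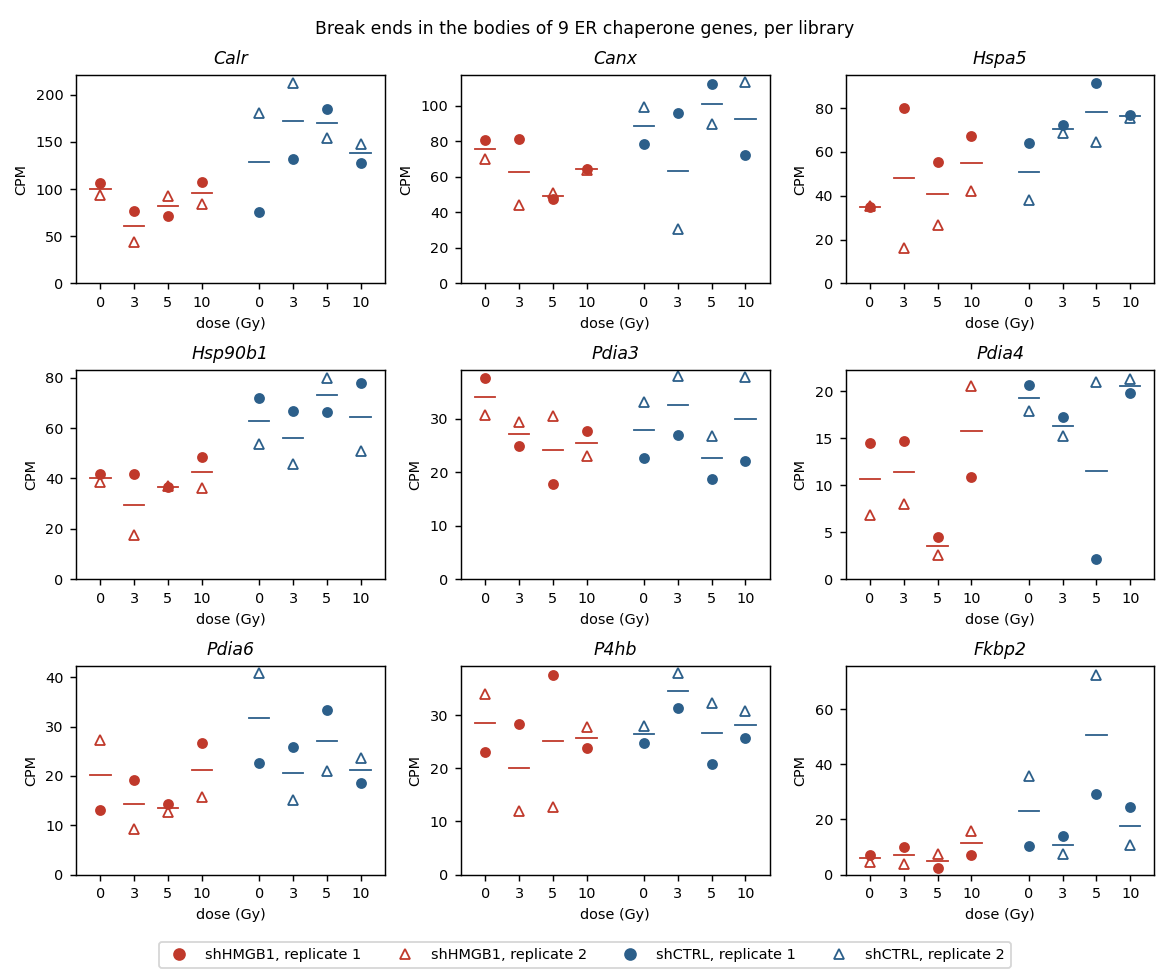
Break CPM in the body of each of the 9 genes in every library, by dose, with shHMGB1 (red) left of shCTRL (blue), filled circles for replicate 1, open triangles for replicate 2 and a bar at the mean of 2. In Pdia3 and P4hb the lines overlap widely, and in Fkbp2 the highest point is shCTRL 5 Gy replicate 2 at 72.4. In Hsp90b1 the shHMGB1 points lie below the shCTRL points at each dose, a pattern whose share among all genes was not counted.

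Over all 12584 genes, 31 (0.246%) were past an edgeR adjusted p of 0.05 between the lines, 10 of them higher and 21 lower (0.167%) in shHMGB1 cells, while DESeq2 gave 2 higher and 27 lower and edgeR with DESeq2 size factors 6 higher and 22 lower. With the replicate number of each line as a block, 135 genes were past it.

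The lower summed level in shHMGB1 cells lay mostly in exons. Exon density of the 9 genes together was 7.11 ± 1.59 CPM per kb in shHMGB1 and 12.4 ± 1.97 in shCTRL libraries (SD, n = 8 each), a ratio of means of 0.574. Intron density was 1.02 ± 0.226 in shHMGB1 and 1.25 ± 0.343 in shCTRL libraries, a ratio of 0.823. Exon ends of other genes moved the same way: over all coding genes exon density was 0.984 ± 0.0967 in shHMGB1 and 1.102 ± 0.0593 in shCTRL libraries, and intron density 0.390 ± 0.0154 in shHMGB1 and 0.400 ± 0.0268 in shCTRL libraries.

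The scale factors of the exon fit put the tested exons as a whole 0.36 lower on the log2 scale in shHMGB1 than in shCTRL libraries on the CPM scale, and those of the gene body fit 0.06 lower. Changes from the exon fit are relative to that shift. On that relative scale Calr exons were at −0.48 ± 0.19, Canx at −0.41 ± 0.23, Hspa5 at −0.42 ± 0.22, Hsp90b1 at −0.68 ± 0.25, Pdia6 at −1.19 ± 0.56 and Fkbp2 at −1.59 ± 0.40. P4hb exons were at −0.07 ± 0.38 and Pdia3 exons at 0.60 ± 0.42. The part that the general shift of exon ends has in the members' change was not tested.

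The 6 members with introns past the filter had intron log2 changes between −0.69 ± 0.46 in Calr and −0.07 ± 0.31 in P4hb, shHMGB1 over shCTRL, with Hsp90b1 at −0.63 ± 0.30. Over all genes, none was past the edgeR threshold in the exon fit (0% of 2629, 206 at an unadjusted p under 0.05), and 16 of 10632 were in the intron fit (0.15%).

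Some of these values were smaller in size when dense positions or exon edges were left out. When each position was counted once per library, the log2 changes between the lines were −0.59 in Calr, −0.58 in Hsp90b1 and −0.25 in Canx, and Fkbp2 no longer passed the filter. Without ends at low exon edges Hsp90b1 stood at −0.59 and Calr at −0.76. Without the densest position of each gene Calr stood at −0.65 and Hsp90b1 at −0.70.

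The list of 74 other genes of the pathway was chosen for function, with earlier results of these data known. It holds cochaperones, glycan-processing enzymes, degradation factors and the sensors and transcription factors of the unfolded protein response. Of these, 58 passed the filter in gene bodies. None was called for irradiation, in either line alone, for the difference between lines or between the lines, in gene bodies or exons. The 5 densest were Atf4, a transcription factor of the response, at 12.1 ± 7.37 CPM per kb, Serpinh1, a collagen chaperone, at 7.29 ± 2.94, Sdf2l1, a cofactor of Hspa5, at 2.77 ± 1.56, Hyou1, an Hsp70-related chaperone, at 2.76 ± 1.23, and Xbp1, a transcription factor of the response, at 2.51 ± 1.43 (SD, n = 16).

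In introns 44 passed, and 1 of them was called: Serpinh1 was lower in irradiated shHMGB1 cells than at 0 Gy, with a log2 difference of −1.84 ± 0.36 and an edgeR adjusted p of 0.0153, where 1 of 10632 genes was called (0.00941%). In shCTRL cells its intron value was 0.41 ± 0.44, and the difference between lines, −2.25 ± 0.57, had an edgeR adjusted p of 0.569. Serpinh1 exons were at −0.27 ± 0.37 in shHMGB1 cells.

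The median log2 difference of the 58 genes for irradiation was −0.13, with 20 above and 38 below 0, beside 0.00 for the 9 chaperone genes and 0.01 for all genes. Between the lines, the 58 genes had a median of −0.11, with 41 of 58 below 0, where 5726 of all 12584 genes were. Hyou1 had 25.9 ± 11.998 CPM in shHMGB1 and 45.1 ± 13.7 in shCTRL libraries (SD, n = 8 each), a log2 change of −0.73 ± 0.23 with an edgeR adjusted p of 0.213. Over the pathway list exon density was 1.13 ± 0.214 CPM per kb in shHMGB1 and 1.49 ± 0.258 in shCTRL libraries.

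Genes whose level over the 16 libraries was most like the summed level of the 9 were sought among 1336 genes with a mean of at least 50 ends per library. The highest Pearson r values were those of Map4k4 (0.95), Bcar3 (0.92), Mprip (0.91) and Gas7 (0.89). The 16 points share their libraries and fall into the 2 lines, so these values describe likeness over this set of libraries only.

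The promoters were read because the members are known as a group induced together through a shared element. All 9 genes had a RefSeq promoter window (GRCm38.p6, 250 bases before to 50 after the start), 11 windows in all, with 3 for Fkbp2. The ER stress response element, searched as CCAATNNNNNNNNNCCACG on both strands, stood in windows of 5 of the 9 genes, Calr, Canx, Hsp90b1, Hspa5 and Pdia6, and at 2 places in that of Hsp90b1. It stood in 39 of all 32851 promoter windows (0.119%). The matches are printed 5′ to 3′ in the direction of the gene, in capitals with 5 bases on each side.

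Hspa5: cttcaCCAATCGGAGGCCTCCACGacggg

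Calr: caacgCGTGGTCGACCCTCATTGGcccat

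Canx: attgaCCAATCACCACGCTCCACGaagaa

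Pdia6: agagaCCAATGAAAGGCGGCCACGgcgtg

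Hsp90b1: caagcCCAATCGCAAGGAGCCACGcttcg

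Hsp90b1: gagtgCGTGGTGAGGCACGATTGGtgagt

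The Calr match and the second Hsp90b1 match read on the opposite strand. The Hspa5 match ends 46 bases before the start site, the Pdia6 match 79, the Canx match 126 and the Calr match 143, and the Hsp90b1 matches 193 and 88. The shorter element ERSE-II (ATTGGNCCACG) stood in none of the 9 genes and in 0.0365% of all windows. The unfolded protein response element (TGACGTG followed by G or A) stood in Hspa5 alone and in 1.12% of all windows. CCAAT, which the ER stress response element contains, stood in windows of all 9 genes and in 37.4% of all windows. Of 58 genes of the pathway list with a promoter window, 5 held the ER stress response element, Calr4, Creld2, Derl3, Dnajc3 and Syvn1. A match of letters is a description and not a measured site.

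The promoter windows of the main starts, of 300 bases each, held 3 to 25 ends, where the median window of all genes held 1. The gene bodies are longer than these windows, and the 2 were not compared per kb. They stood between the 79.1th percentile of all windows in Pdia6 and the 99.7th in Hspa5. The Hspa5 window held 25 ends over the 16 libraries, 11 from shHMGB1 and 14 from shCTRL, and the Hsp90b1 window 13, of which 11 came from shHMGB1 and 2 from shCTRL libraries. In the other members, shHMGB1 libraries held 7 ends and shCTRL libraries 1 in the Pdia3 window, 4 and 1 in those of Calr and of Canx, and 1 and 2 in that of Pdia6. All 5 ends of the Pdia4 window, all 4 of P4hb and all 7 of Fkbp2 came from shHMGB1 libraries. In 7 of the 9 main windows shHMGB1 libraries held more ends than shCTRL libraries. These window counts are not scaled to library totals. The totals ran from 691644 to 1010888 ends in shHMGB1 and from 131430 to 927413 in shCTRL libraries. Larger totals raise such counts, and their part in these window counts was not tested. Gene body ends, likewise unscaled, were 575 in shHMGB1 and 663 in shCTRL libraries in Calr. In the same order they were 424 and 429 in Canx, 312 and 330 in Hspa5, and 254 and 308 in Hsp90b1. Those of Pdia4 were 69 and 82, and those of Fkbp2 49 and 115. In Pdia3 (184 and 128), Pdia6 (120 and 116) and P4hb (171 and 132) shHMGB1 libraries held more. The share of all windows with more shHMGB1 ends was not counted, and no test was run. The window with the most ends was the window of an internal start of Fkbp2, which contains the dense base shown above and had 107 ends, 20 from shHMGB1 and 87 from shCTRL libraries.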

How the data were processed

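Break ends of 16 AB22 BLISS libraries were analysed. The authors deposited raw counts of break ends per position, in files they named as de-duplicated by molecular identifier. BWA 0.7.5-r404, Trimmomatic 0.32, UMI-tools, bedtools and SAMtools are listed in the submitters' processing notes beside build mm10, without roles or settings. The files keep no strand.

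Ends on the main chromosomes were assigned to GENCODE M21 gene bodies, and to a gene's own merged exons or the rest of its body. Groups followed the labels' hairpin, dose and replicate number. Depth was 131430 to 1010888 ends per library, so a low gene rests on few ends, and intervals cover counting error only. All genes were fitted with edgeR 4.0.16 (R 4.3.3; glmQLFit, glmQLFTest, TMM, filterByExpr) on 8 group means, at a Benjamini-Hochberg adjusted p under 0.05. DESeq2 1.42.0, other scalings, no filter, distinct positions, overlapping ends left out, dose as a linear term, replicate blocks and each library left out in turn were alternatives. Ends at exon edges, the densest position and both shCTRL 3 Gy libraries left out were added after seeing the data. On simulated data for irradiated against 0 Gy in gene bodies (11464 genes), 80.7% of genes changed by 1 and 98.2% of genes changed by 1.5 (log2) were called. The changed genes were drawn only from better covered genes, and their spread was taken from the trend over all genes. These shares therefore do not hold for members with fewer ends, such as Pdia4 and Fkbp2.

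The replicate numbers were checked as pairs: deviations from the group means of same-numbered libraries correlated at 0.22 to 0.38 among shHMGB1 groups and 0.23 to 0.39 among shCTRL groups, over 1338 genes, and at −0.28 to 0.21 between lines, so the numbers pair libraries within a line only. No 2 libraries of a group agreed within sampling noise.

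The members and lists were chosen with earlier results of these data known. Besides all members, the naming rule selects Hmgb1, pathway genes past a test, the 5 densest pathway genes and the 5 genes most like the members, from log2 CPM with a prior count of 2. Hyou1 is also among the densest. Other steps used Python 3.11.15, pandas 2.3.3, scipy 1.17.1, numpy 2.4.6 and matplotlib 3.10.9. Of the genes whose level was most like that of the members, 1 that this rule selects is not reported here.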

Additional observations from a re-analysis of the deposited data

Results flagged for a closer look

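Among 60 groups of 8 libraries (each gene and the sum, in gene bodies, exons and introns, for each line), 5 had a library far from the others by Dixon's test, where chance gives about 1 in 20 groups. In gene bodies, Hsp90b1 was at 17.3 CPM in shHMGB1 3 Gy replicate 2, below the other shHMGB1 libraries. Pdia4 was at 2.08 in shCTRL 5 Gy replicate 1, a single end, below the other shCTRL libraries. Fkbp2 was at 72.4 in shCTRL 5 Gy replicate 2, above the next shCTRL library at 35.7, and its exons were at 66.7 in the same library, above the next at 30.6. P4hb exons were at 30.4 in shCTRL 3 Gy replicate 2, above the next at 15.3, in the library with the fewest ends.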

How the results depend on the processing

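No member was called for irradiation, or for the difference between lines, under any alternative run. Counts of genes called over all genes moved. For irradiation in gene bodies 2 genes were called. DESeq2 gave 0, the linear dose term and the densest position left out 1 each, and library totals, overlapping ends left out and ends at exon edges left out 4 each. Both shCTRL 3 Gy libraries left out gave 5, no filter 6 and the replicate block within each line 19. Leaving out each library in turn gave 1 to 13, the highest without shHMGB1 3 Gy replicate 1. In introns 4 were called. DESeq2 and the densest position left out gave 0, distinct positions and the linear dose term 1, the replicate block within each line 12, and single libraries left out 0 (without shHMGB1 0 Gy replicate 1) to 13 (without shHMGB1 3 Gy replicate 1). In exons 0 became 4 with the replicate block within each line. For the difference between lines, 0 became 1 without shCTRL 0 Gy replicate 1, the range being 0 to 1. Between lines 31 became 11 without the densest position, 70 with distinct positions and 135 with the replicate block within each line, and 7 (without shHMGB1 0 Gy replicate 2) to 140 (without shHMGB1 3 Gy replicate 1) with single libraries left out. An additive replicate block gave 3, 0, 4 and 33 calls for irradiation in bodies, exons and introns and for the lines. Where a library was left out, its partner alone stood for the group and was assumed to vary like the others. The number of genes tested changed as well. With single libraries left out, 14680 to 15490 gene bodies passed the filter, against 12584 with all libraries and 10411 with distinct positions. The cause of the changes in calls was not tested. The median log2 value of all genes was 0.15 between lines and 0.26 for irradiation in exons without the filter, against 0.04 and −0.02 with it. Without shCTRL 3 Gy replicate 1 it was 0.20 between lines, 0.21 for the difference between lines in the response, and −0.12, −0.15 and −0.14 for irradiation in bodies, exons and introns. Depth limits Pdia4 and Fkbp2 most, with as few as 1 end a library.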
